A study of Rattus norvegicus with 17 samples.

Results

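Sv2c, a membrane glycoprotein of synaptic and dense-core vesicles, and 9 genes of the vesicle release machinery were followed on 17 arrays of rat tumour tissue, as 10 of 14506 genes with a value. Sv2c was chosen for its higher level in treated than in control samples in these same data, so its treated and control values are given as a description with no test. The other 9 genes (Syp, Snap25, Stx1a, Vamp2, Syt1, Syt4, Cadps, Rab3a and Rab27b) were chosen by function, with earlier results of these data known. Each gene was read from the probe set annotated with that symbol alone and, where there were several, the one with the highest mean.

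The study tested NVP-BEZ235, a compound that blocks both PI3K (phosphoinositide 3-kinase) and mTOR, and its title names pheochromocytoma, a tumour of the chromaffin cells of the adrenal medulla. All rats were 8 months old, on a mixed Sprague-Dawley white eye and Wistar-Kyoto background, and all, controls included, carried a mutation of Cdkn1b, which encodes the cell cycle inhibitor p27Kip1. The sample labels call this mutation homozygous and the design text calls it heterozygous. Controls were given 20 mg/kg PEG (polyethylene glycol; 7 arrays, 5 female and 2 male). The treated rats were given NVP-BEZ235 at 20 mg/kg (6 arrays, 4 female and 2 male) or at 30 mg/kg (4 arrays, 3 female and 1 male). The labels give no length of treatment and do not state whether arrays came from different animals. The p-values therefore reflect array-to-array spread, which may be partly technical.

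Chromaffin cells store catecholamines and peptides in dense-core granules and release them by calcium-triggered exocytosis. A vesicle is brought to the plasma membrane by small Rab GTPases and their effectors and is made ready for fusion by priming factors such as CAPS and Munc13. It then fuses when the SNARE proteins of the vesicle (VAMP) and of the plasma membrane (SNAP-25 and syntaxin) zip together, a step that synaptotagmins make dependent on calcium.

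The tissue label is pituitary adenoma, while the highest marker levels were those of the adrenal gland. In the controls, Th, which makes the catecholamine precursor L-DOPA, had a mean log2 level of 12.10 ± 0.31 (SD, n = 7), and Cyp11a1, a steroid-synthesis enzyme of the adrenal cortex, 12.17 ± 0.19 (SD, n = 7). Of the 7 listed pituitary hormones, Gh1, Tshb, Fshb, Cga and Pomc had control means from 3.97 to 4.22, below the array medians of 4.95 to 5.11. Lhb lay among those medians at 5.05 ± 0.17 (SD, n = 7), and Prl above them at 6.15 ± 1.46 (SD, n = 7), with a highest control of 9.16. The tissue is therefore named below only by its treatment group. In bulk tissue, fewer cells of a type and less RNA per cell cannot be told apart.

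The 250 bases before the transcription start were available for 9 of the 10 genes, from RefSeq on build GRCr8. They are shown for Sv2c, which was chosen for its rise, and for the 4 genes that were lower at 30 than at 20 mg/kg. Sv2c lies at chr2:29163169-29163418 (minus strand), Syt1 at chr7:46244214-46244463 (minus strand), Syp at chrX:17536450-17536699 (minus strand), Cadps at chr15:14720476-14720725 (plus strand) and Rab3a at chr16:18722274-18722523 (minus strand). Capitals mark the motifs found: the GC box GGGCGG, read on either strand, and the half-site TGACG of the cAMP response element, which is part of the full element TGACGTCA.
Sv2c: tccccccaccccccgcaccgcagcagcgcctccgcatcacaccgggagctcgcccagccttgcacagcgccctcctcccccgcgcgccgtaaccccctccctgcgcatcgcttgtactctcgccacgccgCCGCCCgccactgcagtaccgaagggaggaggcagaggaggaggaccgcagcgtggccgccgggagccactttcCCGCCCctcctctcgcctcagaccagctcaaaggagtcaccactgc
Syt1: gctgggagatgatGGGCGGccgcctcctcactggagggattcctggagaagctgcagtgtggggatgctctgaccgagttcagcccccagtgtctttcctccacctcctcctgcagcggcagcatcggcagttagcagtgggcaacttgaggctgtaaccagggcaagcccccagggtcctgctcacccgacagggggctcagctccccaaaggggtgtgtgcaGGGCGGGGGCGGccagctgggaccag
Syp: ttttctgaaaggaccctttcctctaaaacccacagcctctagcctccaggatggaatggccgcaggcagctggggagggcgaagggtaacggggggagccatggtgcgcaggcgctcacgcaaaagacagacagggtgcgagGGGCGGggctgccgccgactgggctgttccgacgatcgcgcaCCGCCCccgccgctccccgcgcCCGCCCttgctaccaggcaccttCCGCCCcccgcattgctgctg
Cadps: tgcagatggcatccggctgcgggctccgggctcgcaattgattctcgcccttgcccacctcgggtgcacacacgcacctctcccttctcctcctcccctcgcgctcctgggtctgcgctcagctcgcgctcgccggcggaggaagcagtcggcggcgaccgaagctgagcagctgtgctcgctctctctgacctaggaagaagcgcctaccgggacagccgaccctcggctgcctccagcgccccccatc
Rab3a: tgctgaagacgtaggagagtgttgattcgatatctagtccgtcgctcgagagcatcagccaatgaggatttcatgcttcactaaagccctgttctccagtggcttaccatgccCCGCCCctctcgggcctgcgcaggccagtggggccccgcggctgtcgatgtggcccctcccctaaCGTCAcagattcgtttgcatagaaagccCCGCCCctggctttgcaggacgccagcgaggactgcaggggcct
A GC box was found in 6 of 9 members and in 30.5% of all 33469 promoters in the table. The half-site was found in 3 of 9 (Syt4, Vamp2 and Rab3a) and in 18.2% of all promoters. The full cAMP response element (1.59% of promoters), the FOXO motif GTAAACA (3.21%) and the TATA box TATAAA (12.9%) were in none of the 9. Sv2c has a GC content of 72.0% in this window and GC boxes at 120 to 115 and 46 to 41 bases before the start, while Cadps, at 68.8% GC, has none of the 5 motifs. The median GC content over all promoters was 51.2%.

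Sv2c was higher in every treated array than in every control array. In the controls its log2 level was lowest at 6.07, with a median of 7.42 and a highest value of 7.82. At 20 mg/kg the values ran from 8.14 through a median of 8.43 to 9.46, and at 30 mg/kg the 4 arrays had 8.94, 8.09, 9.76 and 9.77. The gap between the highest control and the lowest treated array was thus narrow, and replicates 3 and 4 at 30 mg/kg were the highest of all. The fitted difference, with sex as a term, was 1.66 ± 0.30 (SE) on the log2 scale for both doses together, or 3.16-fold. It was 1.44 ± 0.33 (SE; 2.72-fold) at 20 mg/kg and 1.99 ± 0.37 (SE; 3.97-fold) at 30 mg/kg. Of all 14506 genes, 12 (0.0827%) had every treated array above every control.

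**Figure D1:**
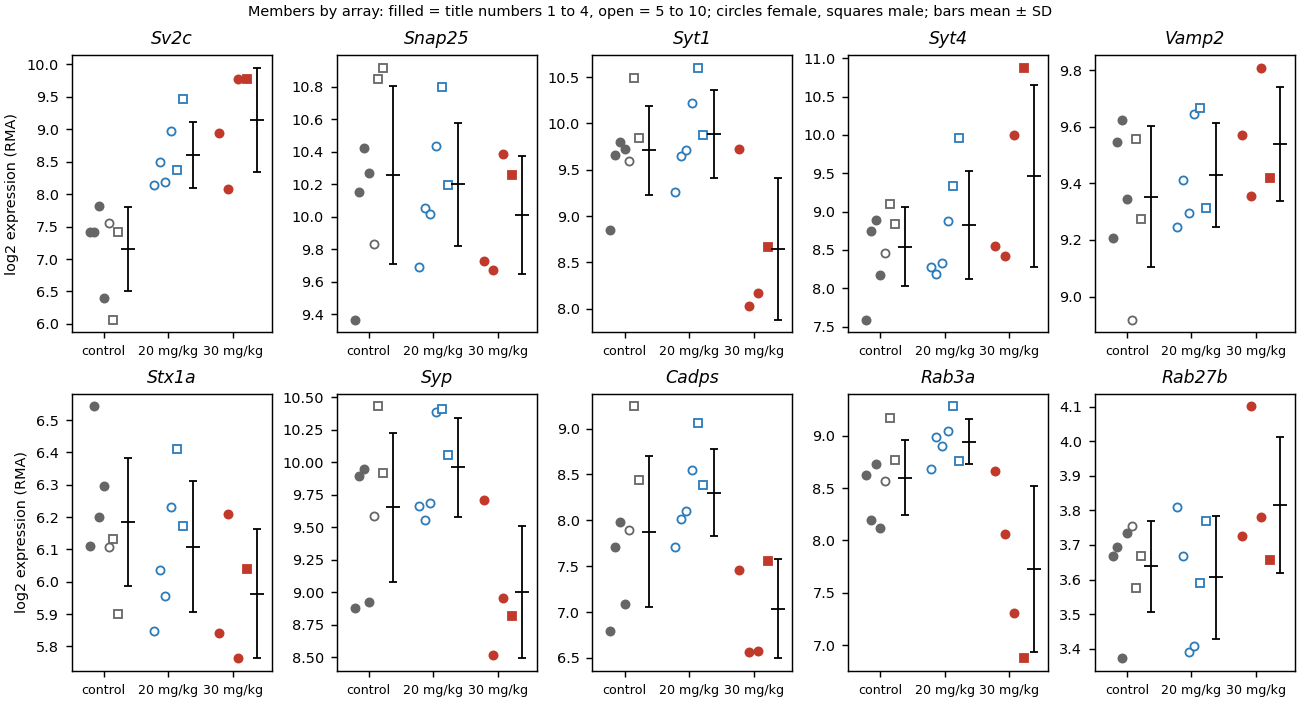
Log2 expression of the 10 members on each array, by group (control, 7 arrays; 20 mg/kg, 6; 30 mg/kg, 4), with the mean and SD beside the points. Filled points carry sample-title numbers 1 to 4 and open points 5 to 10; squares are male. The treated arrays of Sv2c, all above the highest control at 7.82, and the Syt1 and Syp values of 30 mg/kg replicates 2, 3 and 4, below every 20 mg/kg array, are seen.

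The sample titles number the controls from 1 to 7, the 30 mg/kg arrays from 1 to 4 and the 20 mg/kg arrays from 5 to 10. The labels do not say what the numbers stand for, but each dose lies in 1 number set, so dose and number set can be separated only through the controls. Within the numbers 1 to 4, with sex as a term, Sv2c was 1.67 ± 0.43 (SE) higher at 30 mg/kg than in the 4 controls. Replicate 4 at 30 mg/kg, the array with the highest Sv2c (9.771), is the only male in this set. The sex term takes up that array, so the estimate rests on the female arrays alone. Within the numbers 5 to 10 it was 1.60 ± 0.38 (SE) higher at 20 mg/kg than in the 3 controls. Control means of Sv2c were 7.26 in the first set and 7.01 in the second.

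Against control, with both doses together, 1.48% of all genes passed an adjusted p of 0.05 (limma, Benjamini-Hochberg over all genes). None of the 9 members other than Sv2c passed, and none had an unadjusted p under 0.05. At 20 mg/kg alone 1.18% of all genes passed, and again none of the 9 did, nor had an unadjusted p under 0.05. At this dose the 9 had log2 differences from -0.09 (Snap25) to 0.38 (Cadps), with adjusted p from 0.44 to 0.90 in limma. The 95% interval for Cadps ran from -0.13 to 0.89, so a rise of that size is not excluded by these arrays.

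At 30 mg/kg against control, 8.55% of all genes passed and 1 of the 9 members other than Sv2c did. This was Syt1. It encodes synaptotagmin 1, the main calcium sensor of fast vesicle fusion, and was lower (log2 difference -1.05 ± 0.29, SE; 2.07-fold; adjusted p = 0.034, limma). Its controls ran from 8.85 through a median of 9.73 to 10.49, and the 30 mg/kg arrays had 9.72, 8.03, 8.17 and 8.67. Replicates 2, 3 and 4 lay below every control, and replicate 1 lay among them. The call was lost without control replicate 3, 4, 5 or 6 or 30 mg/kg replicate 2, 3 or 4, with differences of -0.88 to -1.04 and limma adjusted p of 0.051 to 0.16. It was also lost with the number set as a term (-0.96, adjusted p = 0.14 in limma).

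The 30 mg/kg arrays also differed from the 20 mg/kg arrays, in a comparison that shares the 30 mg/kg arrays with the one before. Here 12.1% of all genes passed, 569 higher and 1183 lower, and 4 of 10 members did, all lower: Syp, Syt1, Cadps and Rab3a. Against the background of 12.1% this is a larger share, but the members were chosen with results of these data known and no test of the share was made. With median centring of the arrays the split over all genes was 366 higher and 1440 lower, and with quantile normalization 606 and 765.

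Of the vesicle membrane proteins, Syp encodes synaptophysin, an abundant protein of small clear vesicles. At 20 mg/kg its values ran from 9.55 through a median of 9.87 to 10.41, and at 30 mg/kg they were 9.71, 8.52, 8.95 and 8.82. Replicates 2, 3 and 4 lay below every 20 mg/kg array and replicate 1 did not. The difference was -0.93 ± 0.28 (SE), a 1.9-fold lower level (limma adjusted p = 0.038), and against control it was -0.64 ± 0.27 (SE; limma adjusted p = 0.15). Sv2c differed between the doses by 0.55 ± 0.38 (SE; 95% interval -0.26 to 1.35; limma adjusted p = 0.36), so neither no difference nor a more than 2-fold one is excluded.

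The 3 SNARE members did not pass in any dose comparison. Snap25 (a plasma membrane SNARE) stood at a mean of 10.26 ± 0.55 in controls (SD, n = 7), 10.20 ± 0.38 at 20 mg/kg (SD, n = 6) and 10.01 ± 0.36 at 30 mg/kg (SD, n = 4). Vamp2, the vesicle SNARE, had means of 9.35 ± 0.25, 9.43 ± 0.18 and 9.54 ± 0.20 (SD) in the same order, and its 95% interval for 30 against 20 mg/kg was -0.20 to 0.42. Stx1a, the syntaxin partner of Snap25, had 6.18 ± 0.20, 6.11 ± 0.20 and 5.96 ± 0.20 (SD). Its 2 probe sets held identical values on all 17 arrays and so count as 1 measurement. The group ranges of all 3 genes overlapped.

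The 2 calcium sensors had unlike values at 30 mg/kg. Syt1 at 20 mg/kg ran from 9.25 through a median of 9.79 to 10.60, and was lower at 30 mg/kg (log2 difference -1.20 ± 0.30, SE; 2.3-fold; adjusted p = 0.019, limma). Syt4, a synaptotagmin that binds calcium poorly and sits on dense-core granules, had 8.547, 8.425, 10.002 and 10.876 at 30 mg/kg. Its controls ran from 7.59 through 8.75 to 9.10 and its 20 mg/kg arrays from 8.19 through 8.61 to 9.96. Replicates 3 and 4 at 30 mg/kg were above all other arrays and replicates 1 and 2 were within the control range. The Syt4 difference of 30 mg/kg from control was 0.96 ± 0.31 (SE; limma adjusted p = 0.065), and 0.20 ± 0.30 (SE) without those 2 arrays.

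Cadps encodes the priming factor CAPS1, which acts in dense-core granule release. Its 20 mg/kg values ran from 7.71 through a median of 8.24 to 9.06, and at 30 mg/kg they were 7.46, 6.56, 6.58 and 7.55. All 4 arrays at 30 mg/kg lay below the lowest 20 mg/kg array, and the difference was -1.19 ± 0.28 (SE; 2.28-fold lower; limma adjusted p = 0.014). The controls reached from 6.79 to 9.24 and overlapped both doses, with means of 7.39 for numbers 1 to 4 and 8.52 for numbers 5 to 7. Numbers 1 to 4 are all female, and numbers 6 and 7 are male. The female control 5, at 7.89, lay within the range of numbers 1 to 4 (6.79 to 7.98). Set and sex are thus mixed in this gap.

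Rab3a, the main Rab GTPase of synaptic vesicles, ran from 8.68 through 8.94 to 9.28 at 20 mg/kg, and was 8.67, 8.06, 7.30 and 6.87 at 30 mg/kg. Again no 30 mg/kg array reached the lowest 20 mg/kg array, though replicate 1 came close to it. The difference was -1.21 ± 0.28 (SE; 2.32-fold lower; limma adjusted p = 0.013), and against control it was -0.87 ± 0.27 (SE; limma adjusted p = 0.053). Over all genes, 7.42% had every 30 mg/kg array below every 20 mg/kg array. Rab27b, a Rab of secretory granules, had group means of 3.64, 3.61 and 3.82, near or below the lower quartiles of the arrays (3.65 to 3.91), where differences are compressed.

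**Figure D2:**
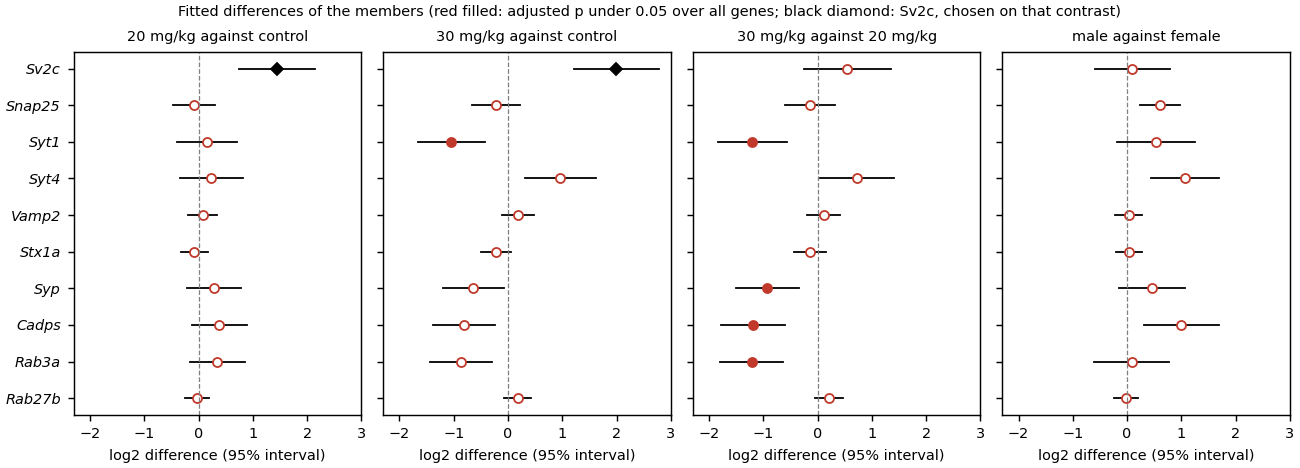
Fitted log2 differences of the 10 members with 95% intervals, in 4 comparisons. Red filled points passed an adjusted p of 0.05 over all genes, open points did not, and the black diamond is Sv2c in the contrasts it was chosen on. Syt1, Syp, Cadps and Rab3a lie between -1.21 and -0.93 in 30 against 20 mg/kg.

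Calls of the 4 lower members were lost without some single arrays and with the number set as a term. Syp also lost its call with quantile normalization (-0.78, adjusted p = 0.091 in limma). Without replicate 4 at 30 mg/kg, none of the 4 passed in limma (Syt1 -1.05, Syp -0.71, Cadps -1.10 and Rab3a -0.82; adjusted p from 0.077 to 0.19). In that fit 321 of 14506 genes passed, against 1752 with all arrays. Syt1 was also lost without 30 mg/kg replicate 2 or 3 (-1.03 and -1.08), and Syp without either of these or any of 20 mg/kg replicates 5 to 9 (-0.80 to -0.99). Without replicates 3 and 4 together, a setting added after seeing the data, the 4 differences were -0.82 for Syt1, -0.65 for Syp, -0.96 for Cadps and -0.47 for Rab3a, and none passed. Only replicates 1 and 2 then remain at 30 mg/kg, and 51 of 14506 genes passed, so calls were lost over all genes. With the number set as a term, 0% of all genes passed in 30 against 20 mg/kg. The differences were -1.01 for Syt1, -0.55 for Syp, -0.55 for Cadps and -0.70 for Rab3a. Their SEs were 0.505, 0.449, 0.425 and 0.437 in this order, against 0.302, 0.276, 0.279 and 0.277 without the term. Each dose lies in 1 number set, so this term widens the SEs and separates dose from set only through the controls. In that fit 1 of 10 members, Stx1a (-0.47), had an unadjusted p under 0.05. Within the numbers 1 to 4, 0.11% of genes passed in 30 mg/kg against control and 0 of the 9 members did, none with an unadjusted p under 0.05. The differences were -0.87 for Syt1, -0.35 for Syp, -0.52 for Cadps and -0.41 for Rab3a. The sex term there takes up replicate 4 at 30 mg/kg, the only male, so these values rest on the female arrays and also leave that array out. Within the numbers 5 to 10, 1.19% of genes passed in 20 mg/kg against control and 0 of the 9 did, again none with an unadjusted p under 0.05.

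The mean of the chromaffin cell markers was low on the same arrays. The mean log2 level of the 11 of 13 listed markers with a value ran from 10.09 to 10.68 in controls and from 10.18 to 10.86 at 20 mg/kg. At 30 mg/kg it was 10.33, 9.95, 9.45 and 9.68 in replicates 1 to 4, so that the 3 replicates with low Syt1 and Syp were also the 3 below every other array. In 30 against 20 mg/kg, 4 of the 11 passed in limma, all lower: Ddc (-1.99), Hand2 (-1.44), Cyb561 (-1.41) and Slc18a1 (-1.11). The other 7 did not pass, and they lay on both sides of 0: Dbh at 0.30, Phox2a at 0.29, Th at 0.18, Chgb at 0.10, Chga at -0.12, Gata3 at -0.34 and Slc18a2 at -0.50. With this mean as a covariate, a setting added after seeing the data, the 4 differences were -0.44 for Syt1, -0.31 for Syp, -0.66 for Cadps and -0.64 for Rab3a, and none passed. Calls also fell over all genes in that fit, to 238 of 14506 from 1752 without the covariate. Whether the differences of these 4 genes shrank more than those of other genes was not tested. Macrophage marker means ranged from 7.02 to 7.62 at 20 mg/kg and from 6.32 to 7.38 at 30 mg/kg, endothelial ones from 7.36 to 7.85 and from 7.97 to 8.01, and neuronal ones from 6.40 to 6.65 and from 6.01 to 6.49. Adrenal cortex means ranged from 9.97 to 10.61 at 20 mg/kg and from 10.40 to 11.08 at 30 mg/kg, with Cyp21a1 and Mc2r higher in limma (0.97 and 1.03). Some lists also differed in the contrast of Sv2c, where 1.48% of all genes passed. Erythroid means ranged from 7.77 to 9.45 in controls, from 6.20 to 7.69 at 20 mg/kg and from 5.201 to 7.701 at 30 mg/kg. With both doses together 3 of the 4 erythroid markers were lower in limma (Hbb -2.40, Hba-a3 -1.47 and Hbb-b1 -2.45). Fibroblast and pericyte means ranged from 7.38 to 7.72 in controls, from 6.99 to 7.45 at 20 mg/kg and from 7.06 to 7.36 at 30 mg/kg. Of 9 such markers 1, Col3a1, was lower (-0.68), and of 7 endothelial markers 1, Flt1, was higher (0.74). Beyond the chromaffin covariate, the part of these cell types in the results was not tested.

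**Figure D3:**
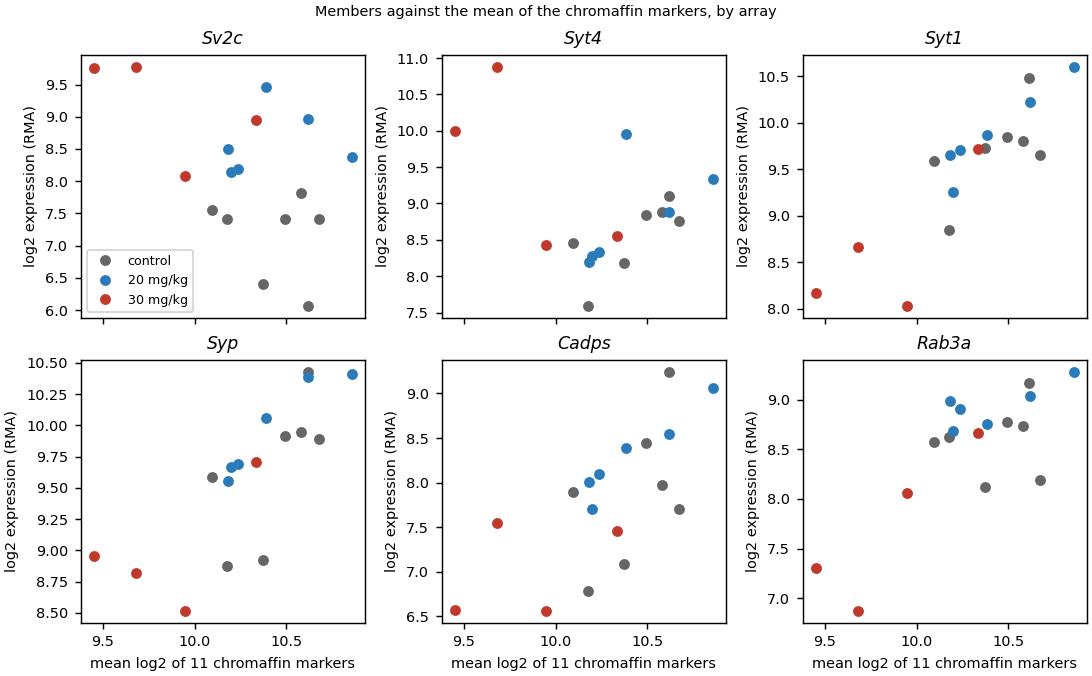
Log2 expression of 6 members (vertical) against the mean log2 level of the 11 chromaffin markers (horizontal), 1 point an array, coloured by group. The 30 mg/kg arrays at 9.45, 9.68 and 9.95 are low in Syt1, Syp and Rab3a, while Sv2c and Syt4 are high in the 2 arrays with the lowest marker mean.

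Among the wider machinery, 103 of 120 listed genes had a value. The paralogs of Sv2c, Sv2a and Sv2b, named for their kinship, had differences of -0.05 ± 0.16 and 0.06 ± 0.24 (SE) with both doses together. In 30 mg/kg against control 5 passed upward, of which Sv2c was chosen on this contrast, and 12 downward, beside 8.55% of all genes (531 higher and 709 lower). In 30 against 20 mg/kg, 3 of the 103 passed upward and 17 downward, beside 12.1% of all genes (569 higher and 1183 lower), and the median log2 difference of the 103 was -0.11 against 0.03 over all genes.

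The counts by role that follow are to be read beside that 12.1%, most of it lower. In 30 against 20 mg/kg, 2 of 20 vesicle membrane genes passed, Syp lower and Scamp2 higher. Of 15 SNARE genes 4 passed, all lower. Vamp1, a vesicle SNARE related to Vamp2, ran from 7.12 to 8.12 at 20 mg/kg and had 6.23, 6.59, 5.99 and 5.54 at 30 mg/kg. Its 2 groups did not overlap, as for 7.42% of all genes in this direction. Its difference was -1.48 ± 0.22 (SE; limma adjusted p = 0.0030), and -1.61 ± 0.22 (SE; limma adjusted p = 0.00044) against control. Against control it also passed with the number set as a term (-1.44) and with the chromaffin mean as a covariate (-1.14). It did not pass there with the title number as a block or within numbers 1 to 4 (-1.27, where the sex term takes up replicate 4). Against 20 mg/kg Vamp1 lost its call with the number set as a term (-1.08), with the title number as a block and without replicates 3 and 4 (-1.06). Vamp3 had a log2 difference of -0.79 ± 0.13 (SE; limma adjusted p = 0.0043) and passed without any 1 array, but not with the number set as a term (-0.59), with the chromaffin covariate (-0.72) or without replicates 3 and 4 (-0.85). The other two were Stx4 and Vamp8, whose differences changed sign in other fits.

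Of 18 calcium sensors, Syt1 and Syt17 were lower and Syt5, at 1.17 ± 0.26 (SE; limma adjusted p = 0.012), was higher. The 30 mg/kg values of Syt5 were 5.64, 6.28, 7.37 and 6.88, against 4.95 to 6.39 at 20 mg/kg, so the groups overlapped. None of 12 SNARE assembly and disassembly factors passed in limma, and 1, Snapin, had an unadjusted p under 0.05. Of 18 docking and priming genes 5 were lower and 1 higher. Ppfia2, a liprin scaffold of release sites, had a log2 difference of -1.83 ± 0.32 (SE; limma adjusted p = 0.0047), and Unc13b, a Munc13 priming factor, one of -0.71 ± 0.17 (SE; limma adjusted p = 0.014). Its relative Unc13a was higher by 0.43 ± 0.12 (SE; limma adjusted p = 0.026), a call lost without 20 mg/kg replicate 5, 6 or 7 or 30 mg/kg replicate 1, 3 or 4 (0.33 to 0.47).

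Of 20 Rab genes and partners 5 passed, all lower: Rab3a, Rab3b, Rab27a, Rph3a and Rph3al. Rab27a, a granule Rab, was at 7.82, 5.82, 6.54 and 6.51 at 30 mg/kg and at 8.13 to 8.99 at 20 mg/kg. Its groups did not overlap, as for 7.42% of all genes in this direction. Its difference was -1.92 ± 0.40 (SE; limma adjusted p = 0.0095), and -1.77 (limma adjusted p = 0.057) without replicate 4. Rph3a, the Rab3 effector rabphilin, had a log2 difference of -1.40 ± 0.28 (SE; limma adjusted p = 0.0072), and without replicate 4 of -1.10 (limma adjusted p = 0.053). The calls of Rab3b, Rab27a, Rph3a and Rph3al were also lost in female arrays only, with the number set as a term and with the title number as a block. The same held with the chromaffin mean as a covariate and without replicates 3 and 4 at 30 mg/kg.

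**Figure D4:**
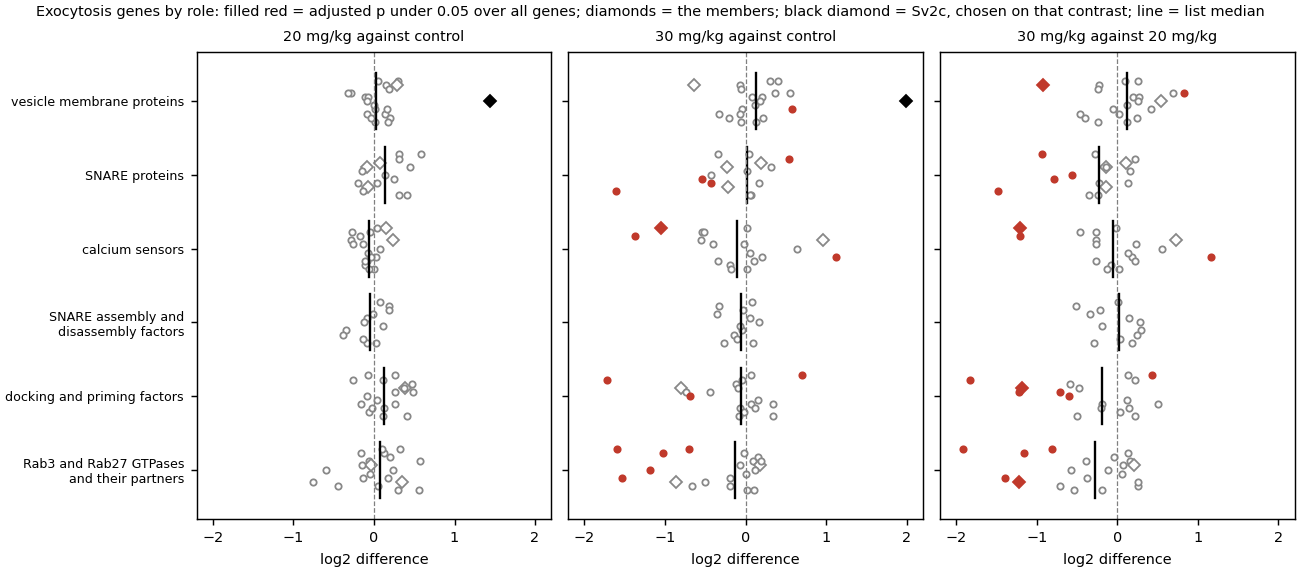
Log2 differences of 103 exocytosis genes by role in 3 comparisons. Filled red points passed an adjusted p of 0.05 over all genes, diamonds are the members, the black diamond is Sv2c in the contrasts it was chosen on, and lines are list medians. In 30 against 20 mg/kg, 17 genes are red on the left and 3 on the right.

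In levels within an array, Snap25 had a median rank at the 97.6th percentile of all genes, Syt1 at 96.2, Syp at 96 and Vamp2 at 95. Syt4 followed at 90.3, Rab3a at 89.9, Sv2c at 84.7, Cadps at 81.5, Stx1a at 54.8 and Rab27b at 15.7. These ranks describe probe set signals, which also depend on the probes, so they give no order of transcript amounts. Sv2c ranged from the 52.4th to the 96.4th percentile over the 17 arrays.

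Male and female arrays were compared in the fit of both doses against control. Of all genes 0.241% passed, and 0 of 10 members did, though 3 had an unadjusted p under 0.05. Syt4 was 1.07 ± 0.30 (SE) higher in males (limma adjusted p = 0.11), Cadps 1.002 ± 0.325 (SE; limma adjusted p = 0.17) and Snap25 0.60 ± 0.18 (SE; limma adjusted p = 0.13). With array weights these 3 passed, beside 639 of 14506 genes, against 35 in the main fit. Syt4 also passed with the number set as a term (1.3), where 128 genes did, or with the chromaffin mean as a covariate (1.21), where 152 did. Sv2c differed by 0.09 ± 0.33 (SE) between the sexes, and in females alone it had a mean of 7.32 ± 0.54 (SD, n = 5) in controls and 8.65 ± 0.61 (SD, n = 7) in treated rats.

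The 5 genes whose levels over the 17 arrays were most like those of Sv2c, by Pearson correlation among all genes with an established symbol, were Sipa1l2 (r = 0.91), Herpud2 (0.88), Cox7a2l (0.88), Ppp1r15a (0.88) and Mafk (0.88). Their Spearman values were 0.89, 0.91, 0.88, 0.90 and 0.90. The arrays share the treatment groups, and after removal of group and sex means the Pearson values were 0.88, 0.67, 0.67, 0.75 and 0.86. Among the members Syt4 came nearest to Sv2c (r = 0.60) and Rab3a lay farthest (-0.39). These values describe likeness and carry no test.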

How the data were processed

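The members and the gene lists were chosen with earlier results of these data known. The authors deposited log2 values of Affymetrix arrays, and per the submitters' processing notes they used RMA and Affymetrix Expression Console 1.3.0.187. The RMA method subtracts background, brings all arrays to 1 distribution of intensities and combines the probes of a set. Further settings, the genome build and a version of RMA are not given in the sources used here. The deposited log2 values (2.22 to 13.7; 29214 probe sets) were used unchanged. Of the probe sets, 15310 had 1 gene symbol, 323 several and 13581 were not listed, and the one of highest mean was kept per symbol, giving 14506 genes. No pair of arrays was identical.

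Models were fitted to all genes with limma 3.58.1 in R 4.3.3 (lmFit, eBayes, two-sided) and tested on simulated data first. Both doses against control, and male against female, came from treatment and sex; dose comparisons from 3 groups and sex. Benjamini-Hochberg adjustment ran over all genes, with a threshold of 0.05. Named genes were the 10 members, listed genes that passed or had the 3 smallest p in a list (of which those that bear on a result are described), and the 5 most like Sv2c. The number of arrays limits the precision. Deviations of same-numbered arrays from their group means had r from -0.18 to 0.08 over genes. From the means of group and number set, r ran from -0.29 to 0.23. The numbers were not used as pairs in the main fits, and served as a block in an alternative setting. Promoters were searched on both strands.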

Additional observations from a re-analysis of the deposited data

How the results depend on the processing

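Of 2431 values of single genes under alternative settings, 2101 kept their direction and side of the threshold or moved less than the spread, 293 no longer passed, 25 newly passed, 4 passing differences reversed and 8 that passed in neither fit moved by more than the spread. In all, 70 differences that passed in neither fit changed sign. Sv2c in both doses together lay between 1.43 and 1.78 when any 1 array was left out. The reversed differences, all in 30 against 20 mg/kg, were Scamp2 (-0.31), Stx4 (0.025) and Vamp8 (0.33) with the title number as a replicate block and Vamp8 (0.29) with the number set as a term; the cause was not tested. Sv2c was chosen on the contrasts of treated against control, so its passing there is not taken as a result. Its difference with both doses together lay between 1.33 and 1.75 under the other settings. No other member passed in that comparison in any setting, where from 12 to 712 of all genes did. For 20 mg/kg against control, too, no member other than Sv2c passed in any setting, where from 0 to 577 of all genes did. The Sv2c difference there lay between 1.19 and 1.56 with 1 array left out, and between 1.13 and 1.68 under the other settings. For 30 mg/kg against control, the number of members that passed is given with Sv2c included. It was 1, Sv2c itself, in female arrays only, with quantile normalization, with the set term and at 0.01. It was 4 with array weights or genes above the 25th percentile and 5 with genes above the median, Sv2c among them each time. It was 0 within numbers 1 to 4, with the replicate block, with the chromaffin covariate and without replicates 3 and 4. Leaving out 1 array gave 1 to 6, again with Sv2c among them. For 30 against 20 mg/kg the number of members that passed is given with that over all genes in brackets. It was 0 in female arrays only (405), with the chromaffin covariate (238) and without replicates 3 and 4 (51). It was also 0 at 0.01, and with the set term or the replicate block, where no gene at all passed. With 1 array left out it was 0 to 4 (321 to 2172). For males against females it was 3 with array weights (639). It was 1 with the set term (128), the chromaffin covariate (152) or without replicates 3 and 4 (215). With 1 array left out it was 0 to 1 (0 to 181). Over all genes, 20 mg/kg against control split into 95 higher and 76 lower, against 195 and 73 with median centring and 38 and 65 with quantile normalization. With the replicate block, 231, 0, 72 and 0 genes passed with both doses together, 20 mg/kg, 30 mg/kg and 30 against 20 mg/kg. Counts over all genes ranged, with 1 array left out, from 46 to 249, 22 to 470, 456 to 1563 and 321 to 2172 in the same order. Signals below the lower quartile limit Rab27b.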
